A study of Mus musculus with 2 samples.

Results

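Endothelial cells (ECs) of the Dach1OE library were divided by how many molecules of Dach1 each cell held. In this library of mouse femur and tibia, 8633 cells counted as ECs with at least 2000 unique molecular identifiers (UMIs, which mark single captured RNA molecules), and 29317 cells of all kinds passed the quality filters, out of 55783 in the series. An EC had at least 1 UMI of 3 or more of the 7 endothelial genes Cdh5, Pecam1, Kdr, Emcn, Tie1, Esam and Plvap and none of Ptprc, the gene of the leukocyte surface protein CD45. Of these ECs, 1526 held 2 or more Dach1 UMIs and are called Dach1-positive, 5233 held none and are called Dach1-negative, and the 1874 cells with 1 UMI were set aside. The comparison addresses which RNAs accompany the overexpressed gene within 1 library, where both kinds of cell shared the same mice, digestion and sequencing.

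Dach1 encodes a nuclear protein of the Dachshund family that binds DNA and regulates transcription, and in blood vessels it is known from the growth of coronary arteries. Bone holds several kinds of endothelium. Sinusoidal ECs line the wide, leaky vessels of the marrow and carry scavenger receptors such as Stab2, arterial ECs depend on Notch signalling and express connexins and SoxF factors, and metaphyseal and remodelling (type R) capillaries lie close to forming bone. In Notch signalling a ligand such as Dll4 triggers cleavage of the receptor on a neighbouring cell, whose freed intracellular part joins the DNA-binding protein RBPJ and activates genes of the Hes and Hey families.

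The study overexpressed Dach1 in ECs of capillaries and compared a Control with a Dach1OE library, each from C57BL/6 mice at postnatal day 30, of both sexes and treated with tamoxifen. The genotype was Dach1OE +/f in Control and Apj CreERT2 - Dach1OE +/f in Dach1OE, so that the conditional Dach1 transgene was carried by all mice and the tamoxifen-inducible Cre by the Dach1OE mice alone. Cre was driven by Aplnr (also called Apj), the gene of the apelin receptor, the transgene lay in the Rosa26 locus, and per the methods the cross also carried the R26-mTmG reporter and the controls were littermates without Cre. Epiphyses were removed and blood cells were depleted by lineage markers, CD45 and CD117, and the cells of 2 mice were pooled per library, with 1 library per group. There was therefore no replicate library, no p-value was computed from cells, and every interval below is a 95% interval that covers counting error only.

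The 2 libraries held 28720 and 32028 cells with 143986818 and 166999989 UMIs at 1.51 and 1.45 reads per UMI, for Control and Dach1OE. They shared 879 cell index numbers, and no index was used to match cells across libraries. Dach1-positive cells gave 8079152 UMIs in sum and Dach1-negative cells 25854105. A cell with more captured RNA is more likely to show 2 Dach1 UMIs, and the median was 4482.5 UMIs in positive and 3673 in negative cells. Median mitochondrial shares were close, at 7.44% and 7.89%. In sums over cells, fewer cells with a transcript and less of it per cell cannot be told apart.

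Dach1 (GRCm38 chromosome 14, 97786853 to 98169765, minus strand) is the gene by whose UMIs the cells were chosen, and the ECs themselves were selected on UMIs of the 7 endothelial genes, Ptprc and the cell total, so these values are a description. Among the ECs of Dach1OE, 17.7% (exact Clopper-Pearson interval 16.9 to 18.5) held 2 or more UMIs. The share in Control ECs by the same rule was 0.199% (0.114 to 0.323), from 16 cells with 2 or more, 163 with 1 and 7870 with none. Cells of the Dach1OE library with none of the 7 endothelial genes had a share of 0.506%. Depth moved the share: with every cell thinned to 2000 UMIs it was 6.93% (6.40 to 7.48), against 0.0248% in Control ECs. Just inside the threshold lay 872 cells with 2 UMIs, and just outside it the 1874 cells with 1. Higher numbers were rare, with 400 cells at 3 UMIs, 149 at 4 and 105 at 5 or more. The highest cell held 11. Summed over the positive cells Dach1 reached 514 CPM (498 to 529), the scaled level used throughout: a gene's UMIs over all UMIs of the group, times 1000000. The tables do not separate UMIs of the transgene from those of the native gene.

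**Figure D1:**
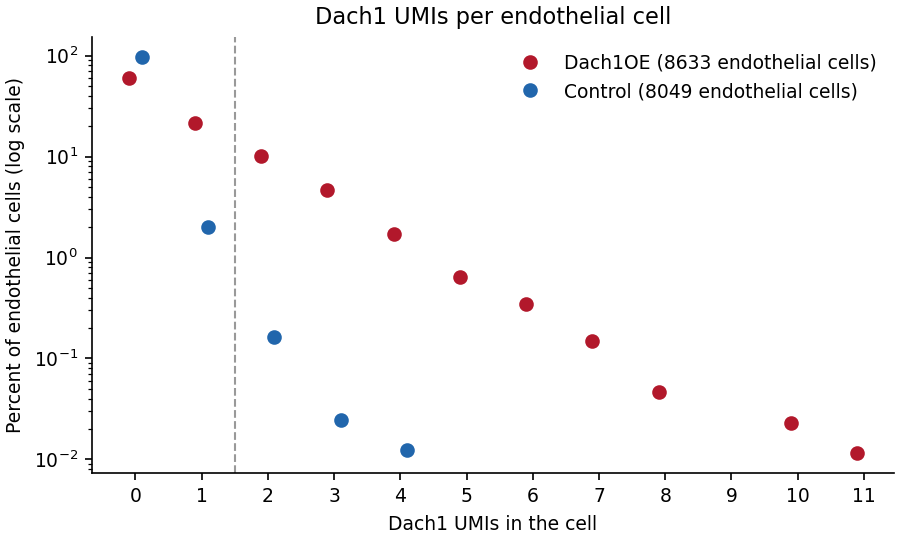
Percent of ECs (log axis) by the number of Dach1 UMIs in the cell, in Dach1OE (red, 8633 cells) and Control (blue, 8049 cells), where the dashed line marks the threshold of 2. Dach1OE points lie above the Control points at every number from 1 to 4, and no Control cell held more than 4.

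The label of the cells was checked with endothelial genes that the rule did not use. Cldn5, a tight junction protein of endothelium, was at 812 CPM in positive and 539 CPM in negative cells, against 3.01 CPM in cells without endothelial genes. Egfl7, a secreted endothelial factor, was at 560 and 372 CPM against 6.77. The transcription factors Erg and Sox18 were at 221 and 142 CPM and at 630 and 479 CPM, against 10.01 and 3.80. Both groups thus carried endothelial RNA well above the level of other cells, and over all cells the positive ones carried more of it. Dach1-negative cells held more RNA of other cell types. Markers of 12 other cell types (78 genes in the tables) took over 5% of the UMIs in 14.8% of negative and 5.11% of positive cells, and in 9.48% of Control ECs. Chondrocyte markers summed to 7351 CPM in positive, 20088 CPM in negative and 12567 CPM in Control cells. For osteoblast markers the sums were 9698, 24472 and 14139 CPM, for mural cells 423, 1204 and 532 CPM, for megakaryocytes 176, 1202 and 1077 CPM and for erythroid cells 204, 446 and 316 CPM. The main counts and lists are therefore also given for the 1296 positive and 3592 negative ECs in which these markers took 1% or less of the UMIs, below called restricted cells. Since other-cell markers define the restricted cells, their low values there follow from the choice. Over all cells each candidate marker of chondrocytes (7 of 7), osteoblasts (8 of 8), mural cells (7 of 7) and megakaryocytes (5 of 5) was lower in positive cells, with median log2 ratios of −1.51, −1.35, −1.45 and −2.52. Of all genes, 20.4% had a counting interval below 0. The lymphatic (−2.21), macrophage (−1.45), erythroid (−1.33), myeloid progenitor (−1.26), stromal (−0.91), basophil (−0.89) and B cell (−0.27) medians were below 0 too, the macrophage and B cell values from 1 gene each. The single neutrophil candidate, S100a8, had 4.21, but 98.3% of its UMIs in positive cells came from 1 cell. Erythroid markers were also lower in restricted cells, where 5 of 5 had an interval below 0 (15.4% of all genes) with a median of −1.57.

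Of 10946 genes that reached 5 CPM over both groups together, 69 (0.63%) were at least 2-fold higher and 641 (5.86%) at least 2-fold lower in positive cells. Among restricted cells the numbers were 37 (0.351%) and 192 (1.82%) of 10528 genes. The same gene was higher in both settings 24 times, which is 34.8% of the 69 and 64.9% of the 37. It was lower in both 127 times, or 19.8% of the 641 and 66.1% of the 192. Lower genes over all cells were thus mostly not lower by 2-fold among restricted cells. The median log2 ratio over all genes was 0.06, and 0.00 in restricted cells. Nuclear-retained RNAs were listed with RNA quality in view, though Meg3 among them is also in the list of imprinted genes. Over all cells 4 of 4 had an interval below 0 (20.4% of all genes). The median was −0.62, with ratios from −0.98 to −0.05, and the summed level of the list had −0.22. In restricted cells 1 of the 4 had an interval above and 1 below 0 (14.7% and 15.4% of all genes), with a median of −0.24. The part of RNA quality in the counts was not tested.

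**Figure D2:**
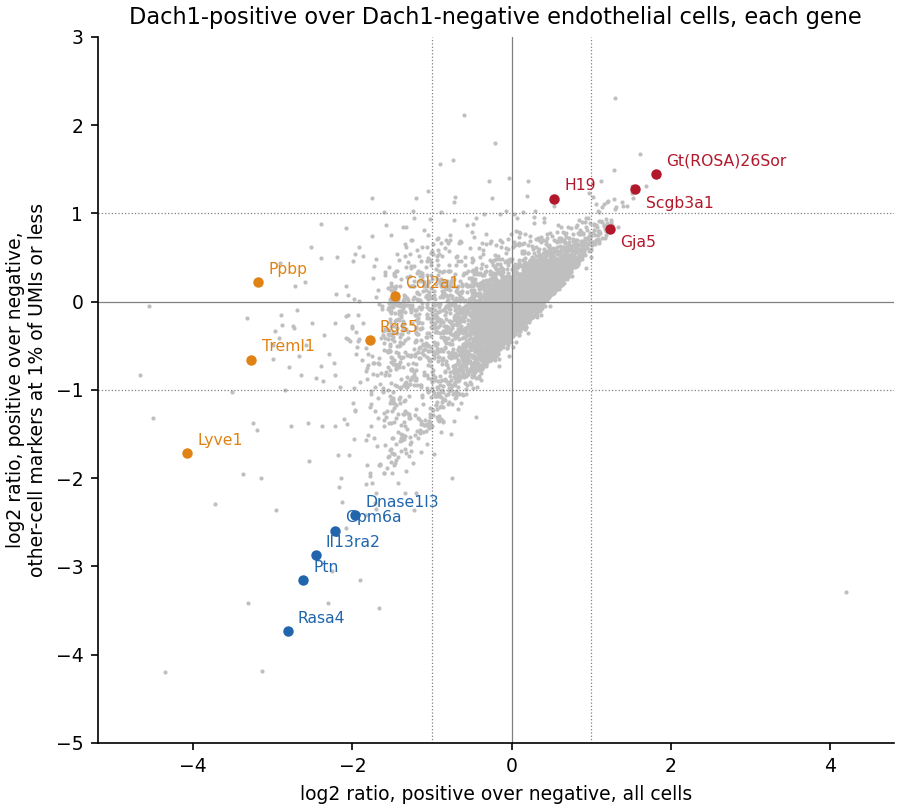
Each grey point is a gene by its log2 ratio (positive over negative cells) over all cells (x axis) and over restricted cells (y axis), and dotted lines mark 2-fold. Scgb3a1 (1.55 and 1.28) and Gt(ROSA)26Sor (1.81 and 1.44) lie at the upper right, Il13ra2 (−2.46 and −2.87) at the lower left, and Ppbp (−3.18 and 0.22, orange, a platelet gene) leaves the diagonal. Ppbp is one of the markers that define restricted cells.

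Gt(ROSA)26Sor had the highest ratio of all genes past the fold whose ratio had the same sign in the cells of either sex. This non-coding RNA of the Rosa26 locus (chromosome 6, 113067428 to 113077333, minus strand, annotated as antisense) comes from the locus that carries the transgene. It was at 303 CPM in positive and 86.4 CPM in negative cells, a log2 ratio of 1.81 (1.73 to 1.89), and at 336 and 123 CPM in restricted cells, 1.44 (1.35 to 1.54). Control ECs had 15.1 CPM. Because the counting is not stated to use strand, reads of genes on the opposite strand cannot be told apart from it. A UMI of it was seen in 70.1% of positive cells, in 55.6% of cells with 1 Dach1 UMI, in 25.9% of negative cells and in 6.86% of Control ECs. In cells without endothelial genes the share was 1.43% in Dach1OE and 5.97% in Control. Thinned to 2000 UMIs, the shares of positive cells, cells with 1 Dach1 UMI, negative cells and Control ECs were 43.3%, 35.8%, 17.3% and 3.06%, in the same order. A part of the cells with 0 Dach1 UMIs thus also held this locus RNA above the level of both backgrounds.

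Scgb3a1, which encodes a small secreted protein of the secretoglobin family, was the most abundant of the genes with the highest ratios (chromosome 11, 49663610 to 49665118, plus strand). It was at 539 CPM in positive and 184 CPM in negative cells, a log2 ratio of 1.55 (1.49 to 1.61), with 602 and 249 CPM in restricted cells (1.28, 1.21 to 1.34). Restricted Control ECs had 13.2 CPM, so that negative cells of Dach1OE lay far above Control and positive cells above both. In thinned cells a UMI of it was seen in 40.4% of positive, 18.9% of negative and 2.16% of Control ECs (unthinned 50.7%, 24.8% and 4.51%), against 0.393% of cells without endothelial genes, whose median depth before thinning was 7002 UMIs.

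The other genes named by the rule were mostly of low abundance. F2rl1, a receptor cleaved by serine proteases, was at 12.7 and 4.18 CPM (1.61). Wfdc1, a secreted protein with a domain of protease inhibitors, was at 42.1 and 14.8 CPM (1.51, 1.29 to 1.72). These and most of the following genes were in negative cells at a level between Control and positive cells. Rdh16, a retinol dehydrogenase, was at 43.4 and 15.9 CPM (1.45), and Lipe, the hormone-sensitive lipase, at 22.2 and 8.47 CPM (1.39). Sik1, a salt-inducible kinase, was at 85.4 and 34.5 CPM (1.31), and Prdm16, a zinc finger factor of brown fat and of arterial endothelium, at 49.1 and 20.04 CPM (1.29). AA467197 (1.52), the anion transporter family member Slc26a10 (1.52), the membrane protein Prom1 (1.40), the kinase Mapk15 (1.34) and the oestrogen receptor Gper1 (1.28) completed the group. In restricted cells their log2 ratios ranged from 0.85 for Mapk15 to 1.67 for F2rl1. The chemokine Cxcl10 was at 31.2 and 12.8 CPM (1.28), but 28.6% of its UMIs in positive cells came from 1 cell, and Control ECs had 32.0 CPM.

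The 12 named genes with the lowest ratios over all cells were largely genes of other tissues. They included the cartilage matrix gene Cilp (−4.67), the tendon gene Tnmd (−3.73), the lymphatic receptor Lyve1 (−4.08) and the platelet genes Tubb1 (−3.37), Treml1 (−3.27), P2ry1 (−3.19) and Ppbp (−3.18). The lymphatic chemokine Ccl21a, which has near-identical gene copies and is uncertain for that reason, had no UMI in positive cells and 225 in negative ones, so it was at least 23.4-fold lower with 3 UMIs as the floor. Npas4 (−4.50), Slamf1 (−3.51), Npy (−3.33) and the serotonin transporter Slc6a4 (−3.25) completed them. In restricted cells Ccl21a had no UMI in positive and 7 in negative cells, too few for a ratio. The others lay nearer 0 there, from −2.29 for Tnmd (1 and 11 UMIs, −7.72 to 0.49) to −0.19 for Npy, and Ppbp turned to 0.22 (55.2 against 47.3 CPM). The markers of chondrocytes, osteoblasts, mural cells and megakaryocytes were lower with them over all cells, and their part in these ratios was not tested beyond the restriction. Lyve1, Ccl21a and Ppbp are themselves among the markers that define the restricted cells, so their values there are shaped by the choice.

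Of the 20 genes with the lowest ratios among restricted cells, 15 were at a higher level in Control ECs than in negative cells. The share of all genes with this order is not given here, so the count only describes these 20 genes. Tnnt3, a gene of skeletal muscle, was not, at 0.784 CPM in positive, 8.36 CPM in negative and 4.81 CPM in Control cells (−3.41, −5.06 to −2.15), nor were Mmp9, Myof, Mylpf and Chchd10. The genes described here were chosen after their values were seen. Il13ra2, a decoy receptor of interleukin-13 (chromosome X, 147383476 to 147429192, minus strand), was at 18.8 CPM in positive, 138 CPM in negative and 318 CPM in Control cells. Its log2 ratio of positive to negative cells was −2.87 (−3.15 to −2.61), or 7.32-fold lower. Gpm6a, a membrane glycoprotein best known in neurons (chromosome 8, 54954843 to 55060871, plus strand), was at 26.5, 160 and 630 CPM (−2.60, −2.83 to −2.37). Dnase1l3, a secreted nuclease (chromosome 14, 7964533 to 7994573, minus strand), was at 16.3, 87.3 and 317 CPM (−2.42, −2.72 to −2.13). For these 3 genes the order was the same, with Control highest and positive cells lowest. The potassium channel Kcnj8 was at 26.8, 103 and 293 CPM (−1.94) and Mmrn1, a gene of platelets and endothelium, at 16.6, 80.5 and 205 CPM (−2.28). Mmrn1 is also one of the lymphatic markers that define the restricted cells, so its values there are shaped by the choice. The protocadherin Pcdh17 was at 11.3, 66.9 and 73.0 CPM (−2.57), the growth factor Ptn at 3.76, 33.6 and 36.2 CPM (−3.16) and the Ras regulator Rasa4 at 1.41, 18.8 and 35.6 CPM (−3.74). For Pcdh17 and Ptn the negative cells were therefore close to Control in these sums over all restricted cells. Mmp9, a matrix metalloprotease, had −2.36, but 61.1% of its UMIs over all positive cells came from 1 cell and the ratio was −0.56 in cells with Xist and −4.96 in cells with Y-linked UMIs. In thinned cells a UMI of Il13ra2 was seen in 2.62% of positive, 15.2% of negative and 37.0% of Control ECs (unthinned 5.05%, 22.5% and 54.3%), against 0.180% of cells without endothelial genes. For Gpm6a the thinned shares were 3.54%, 16.1% and 51.7% against 0.146%.

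Levels were then followed over the number of Dach1 UMIs per cell in restricted cells. Scgb3a1 was at 249 CPM with 0 Dach1 UMIs, 508 with 1, 589 with 2, 653 with 3 to 4 and 454 CPM with 5 or more. Most of the step therefore lay between 0 and 1 UMI. Gt(ROSA)26Sor was higher at every step, at 123, 264, 306, 352 and 444 CPM. The semaphorin Sema7a (chromosome 9, 57940112 to 57962865, plus strand), a membrane-anchored guidance protein, was at 316, 498, 584, 541 and 680 CPM, with 66.6 CPM in Control. The arterial connexin Gja5 was at 102, 147, 169, 142 and 424 CPM and Gja4 at 214, 326, 356, 341 and 588 CPM, so that their highest level lay in the 91 restricted cells with 5 or more UMIs. The lower genes reached their floor early. Il13ra2 was at 138, 38.3, 19.5, 16.4 and 25.2 CPM and Gpm6a at 160, 51.2, 25.98, 26.3 and 30.6 CPM. Dnase1l3 was at 87.3, 31.6, 17.4, 13.5 and 21.6 CPM. Cells with 1 UMI, which lie just outside the threshold, were nearer to the cells with 2 UMIs than to those with 0 for each of these 8 genes. Median depths were 3673, 3950, 4272, 4722 and 5682 UMIs over the same steps (all cells), so that depth moved with the number of Dach1 UMIs.

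**Figure D3:**
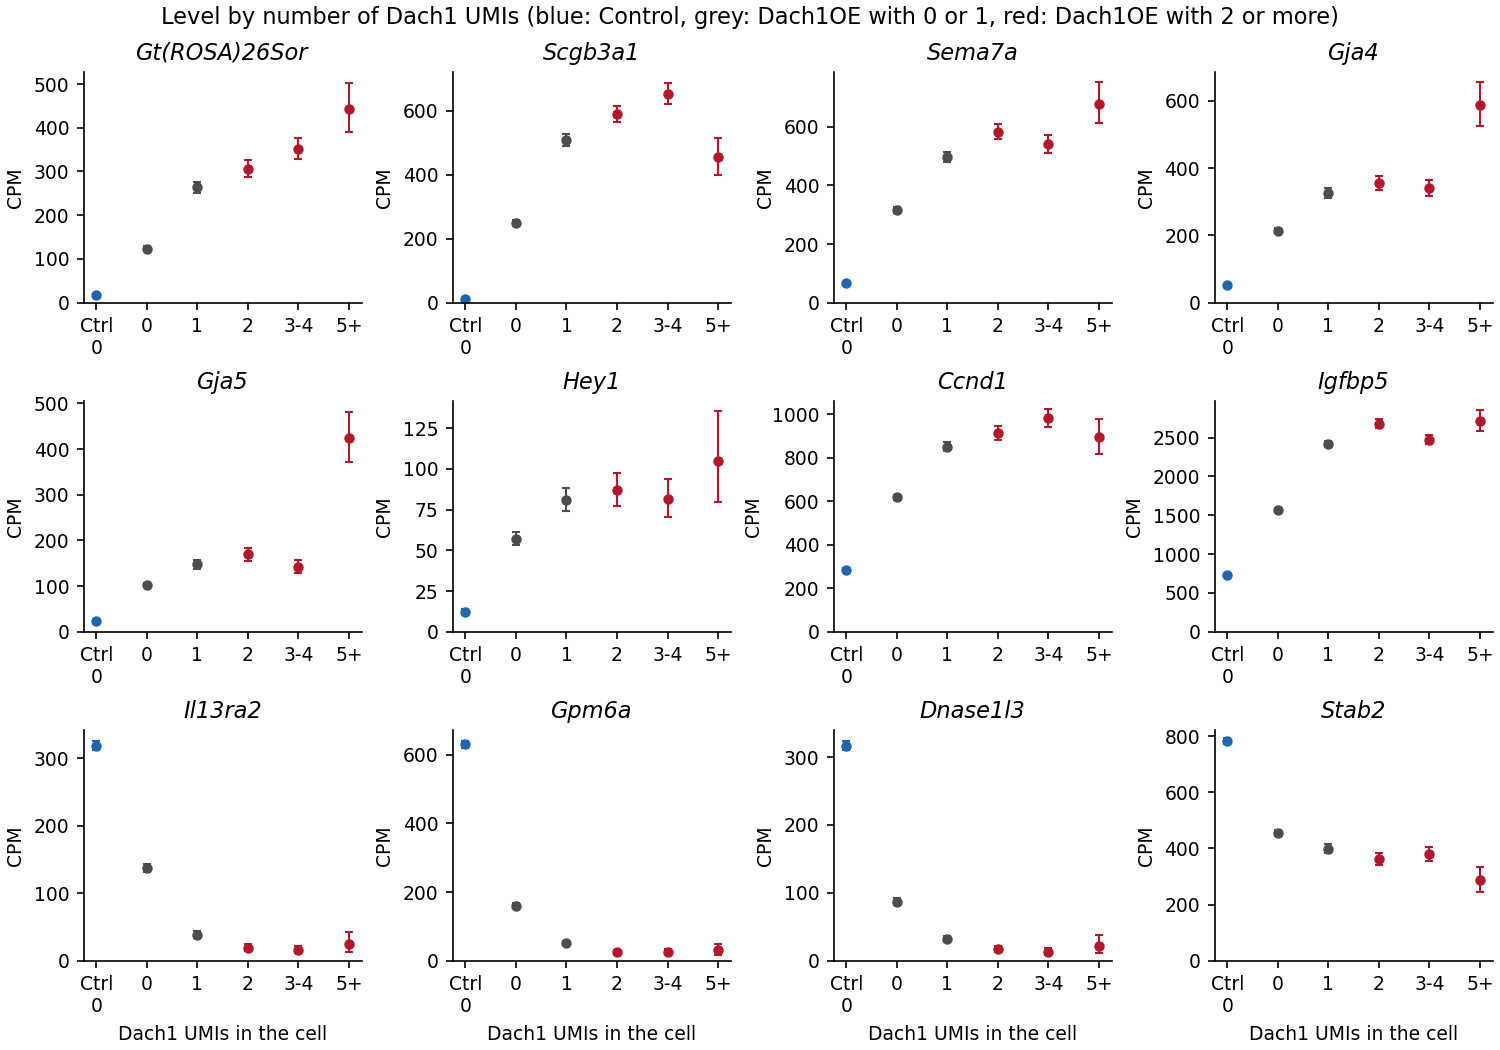
CPM (y axis, each panel from 0) of 12 genes in restricted ECs by Dach1 UMIs in the cell, with exact Poisson 95% intervals. Blue marks Control cells with 0, grey marks Dach1OE cells with 0 or 1 and red marks Dach1OE cells with 2 or more, and for Il13ra2 the points go from 318 CPM in Control to 138, 38.3 and 19.5 CPM with 0, 1 and 2 UMIs.

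Because negative cells held Gt(ROSA)26Sor too, restricted cells were divided by it, which was chosen after the data were seen. Of the negative cells 1040 had a UMI of it and 2552 had none, and of the positive cells 929 had one and 367 had none. Scgb3a1 was at 157 CPM in negative cells without and 464 CPM in negative cells with the locus RNA, and at 699 and 571 CPM in positive cells without and with it. Sema7a was at 226, 527, 431 and 623 CPM and Gja4 at 153, 355, 234 and 414 CPM in the same order. Il13ra2 was at 177, 44.9, 36.5 and 13.1 CPM, Gpm6a at 207, 50.9, 41.6 and 21.6 CPM and Dnase1l3 at 111, 32.8, 26.2 and 13.1 CPM. Median depths were 3178.5, 3493.5, 3677 and 4616 UMIs. Negative cells with the locus RNA thus lay nearer to the positive cells than negative cells without it did. With Gt(ROSA)26Sor in all positive and no negative cell, 130 genes (1.23% of 10542) were at least 2-fold higher and 318 (3.02%) at least 2-fold lower.

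The arterial genes were higher in positive cells. Over all cells, 17 of 17 arterial candidates had an interval above 0 and none below, where 29.2% of all genes had one above and 20.4% one below. Their median log2 ratio was 0.83. At least 2-fold higher were 0.63% of all genes and 5 of the arterial ones. These were Gja5 (chromosome 3, 96904693 to 97077416, plus strand), at 159 and 67.6 CPM (1.24), the gastrokine gene Gkn3 (1.24), Gja4 (chromosome 4, 127311421 to 127314039, minus strand), at 330 and 155 CPM (1.09), Stmn2 (1.05), which acts on microtubules, and the zinc finger factor Mecom (1.03). In restricted cells 14 of 18 had an interval above 0, the median was 0.50 and none passed 2-fold (14.7% and 15.4% of all genes had an interval above and below 0 there). Gja5 was then at 181 and 102 CPM (0.83), Gja4 at 370 and 214 CPM (0.79) and Sox17, a SoxF factor of arteries, at 213 and 162 CPM (0.40). Efnb2, the arterial ephrin ligand, did not differ detectably there, at 90.3 and 91.4 CPM (−0.02, −0.16 to 0.12), but had 0.32 (0.18 to 0.45) over all cells.

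Members of the Notch pathway were higher as well. Over all cells 13 of 17 had an interval above 0 and 3 below it, with a median of 0.56, and in restricted cells 10 of 16 had one above and none below, with a median of 0.26. Of all genes, 29.2% and 20.4% had an interval above and below 0 over all cells, and 14.7% and 15.4% in restricted cells. Of the ligands in restricted cells, Jag2 was at 117 and 82.6 CPM (0.50, 0.37 to 0.64) and Dll4 at 239 and 179 CPM (0.42, 0.33 to 0.51). The receptors had smaller ratios, with Notch4 at 195 and 161 CPM (0.27) and Notch1 at 254 and 213 CPM (0.25). Of the targets, the transcriptional repressors Hey1 (86.5 and 56.9 CPM; 0.60, 0.45 to 0.76) and Hes1 (271 and 181 CPM; 0.59, 0.50 to 0.67) and the feedback inhibitor Nrarp (200 and 133 CPM; 0.59, 0.48 to 0.69) were higher. Hey2, at 7.05 and 4.11 CPM, had 0.78 (0.19 to 1.36). Notch3 and Heyl, which mural cells express, were lower over all cells (−1.62 and −1.60), and in restricted cells their intervals held 0 (−0.33 and −0.55). Mural markers, of which Notch3 is one, were lower in positive cells too, with a median of −1.45 over all cells and −0.51 in restricted cells. Since these markers also define the restricted cells, the value of Notch3 there is shaped by the choice.

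For the most abundant high gene, an arterial connexin and 2 Notch targets, the 250 bases before the transcription start are shown (RefSeq, GRCm38.p6, 5′ to 3′ on the strand of the gene), because these genes were higher together and the core of the RBPJ motif can be looked for there. The motif searched was TGGGAA or its reverse complement TTCCCA on either strand, and capitals mark it.
Scgb3a1 (chr11:49663345-49663594, plus): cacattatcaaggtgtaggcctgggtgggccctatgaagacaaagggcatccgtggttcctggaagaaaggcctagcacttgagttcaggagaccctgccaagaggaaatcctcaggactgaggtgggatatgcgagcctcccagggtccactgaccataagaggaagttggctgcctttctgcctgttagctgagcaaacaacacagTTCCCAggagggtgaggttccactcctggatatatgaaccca
Gja5 (chr3:97032152-97032401, plus): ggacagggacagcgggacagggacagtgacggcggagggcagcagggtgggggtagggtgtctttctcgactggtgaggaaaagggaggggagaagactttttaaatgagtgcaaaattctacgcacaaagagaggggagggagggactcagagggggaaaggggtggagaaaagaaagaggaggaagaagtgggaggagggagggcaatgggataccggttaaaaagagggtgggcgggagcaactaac
Nrarp (chr2:25180508-25180757, plus): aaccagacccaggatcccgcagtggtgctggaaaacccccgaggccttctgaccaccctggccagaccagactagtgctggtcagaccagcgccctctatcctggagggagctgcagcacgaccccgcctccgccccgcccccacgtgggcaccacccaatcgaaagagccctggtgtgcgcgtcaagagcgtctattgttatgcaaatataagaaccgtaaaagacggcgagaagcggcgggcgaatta
Hey2 (chr10:30842784-30843033, minus): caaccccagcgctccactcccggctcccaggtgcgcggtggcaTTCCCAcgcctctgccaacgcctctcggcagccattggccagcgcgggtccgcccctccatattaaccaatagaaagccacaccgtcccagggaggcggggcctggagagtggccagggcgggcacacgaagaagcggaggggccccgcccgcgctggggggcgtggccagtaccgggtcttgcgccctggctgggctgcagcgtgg
The Scgb3a1 window held 1 match, starting 42 bases before the start site, and the Hey2 window 1 match, starting 207 bases before it. The windows of Gja5 and Nrarp held none, nor did that of Gja4. The Gja5 window precedes the only RefSeq start held for this gene, which lies inside the gene span given above and not at its beginning. The bases before the beginning of that span were not searched. Of 32851 promoters of this length, 7094 (21.6%) held the motif, so a match is common.

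The sinusoidal genes did not differ as a group in 1 direction over all cells. Of 14, 6 had an interval above and 7 below 0 (29.2% and 20.4% of all genes), and the median was −0.03, which turned to 0.27 in cells of at least 4000 UMIs and to 0.14 in cells with Xist. In restricted cells 11 of 14 had an interval below 0 (15.4% of all genes) and the median was −0.38. Stab2, Stab1 and Flt4 had opposite signs in the 2 settings, with 0.07, 0.17 and 0.19 over all cells. The values that follow are of restricted cells. Dnase1l3 had the lowest ratio, followed by the adhesion receptor Adgrg6 at 27.9 and 70.8 CPM (−1.34, −1.58 to −1.11). The scavenger receptors Mrc1, at 152 and 257 CPM (−0.76), Stab2, at 363 and 455 CPM (−0.33, −0.40 to −0.26), and Stab1, at 541 and 634 CPM (−0.23), were lower, as were the cytokine receptor subunit Il6st, at 256 and 427 CPM (−0.74), and the venous factor Nr2f2, at 349 and 486 CPM (−0.48). Flt4, the receptor VEGFR3 that marks sinusoidal ECs in the study, was at 417 and 473 CPM (−0.18, −0.25 to −0.12). Above 0 were the signalling regulator Rgs4 (0.50), the secreted glycoprotein Lrg1 (0.30) and the receptor Gpr182 (0.22). Madcam1, which the study also uses to mark marrow ECs, is not in this list and was higher in positive cells (0.87). All 14 kept their sign in the cells of either sex among restricted cells, Stab2 with −0.02 and −0.48. Of all 10528 genes there, 3259 were above and 3487 below 0 in both. The defining sinusoidal receptors were thus still abundant in positive cells, with differences far below those of Il13ra2 or Gpm6a. Restricted Control ECs had 782 CPM of Stab2 and 684 CPM of Flt4.

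The list of immediate early and dissociation genes joined genes that cells switch on within minutes of a stimulus with chaperone and heat shock genes. Most of its members were higher in positive cells in both settings. In restricted cells 16 of 17 had an interval above 0 (14.7% of all genes) and the median was 0.70, against 14 of 17 (29.2% of all genes) and 0.41 over all cells. The orphan nuclear receptor Nr4a1 was at 89.8 and 44.0 CPM (1.03), and the AP-1 subunits Fosb and Fos at 145 and 71.7 CPM (1.02) and at 445 and 231 CPM (0.95). Control ECs had 27.6, 66.1 and 192 CPM of them. The chaperone Hsp90aa1 was lower (−0.38). The part of tissue dissociation in the values of this list was not tested.

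Proliferation genes were lower in positive than in negative cells. In restricted cells 16 of 20 had an interval below 0 (15.4% of all genes) and none above, with a median of −0.31. Over all cells 10 of 20 were below 0 (20.4% of all genes) and the median was −0.18. In restricted cells the list summed to 1043 CPM in positive, 1299 CPM in negative and 839 CPM in Control cells. Positive cells thus lay below negative cells and above Control. Rrm2, a subunit of ribonucleotide reductase, was at 41.9 and 73.6 CPM (−0.81, −1.01 to −0.62) and Mki67, the antigen of dividing cells, at 71.5 and 92.1 CPM (−0.37, −0.52 to −0.21). The Mki67 ratio was −0.06 in cells with Xist and −0.74 in cells with Y-linked UMIs. Among the cyclins and their inhibitors, cyclin Ccne1 was lower (11.1 and 25.4 CPM, −1.19), while cyclin Ccnd1 was higher (938 and 618 CPM, 0.60, 0.56 to 0.65), as was the inhibitor Cdkn1a (138 and 94.4 CPM, 0.55). Ccnd1 was at 285 CPM in Control.

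Imprinted genes and members of the insulin-like growth factor (IGF) system had a median of 0.32 in restricted cells, with 10 of 15 intervals above 0 (14.7% of all genes) and 2 below (15.4%). H19, a long intergenic RNA that is not translated (GRCm38 chromosome 7, 142575529 to 142578143, on the minus strand), was at 661 and 295 CPM (1.17, 1.10 to 1.23) against 18.9 CPM in Control. Over all cells it was at 727 and 503 CPM (0.53), and cells without endothelial genes often held it, with a thinned share of 24.1% against 16.8% in positive and 13.7% in negative ECs. The share of cells with a UMI is therefore read as within the background. Igfbp5, an IGF-binding protein, was at 2604 and 1573 CPM (0.73, 0.70 to 0.76) and the imprinted gene Mest at 294 and 188 CPM (0.64). Lower were Igfbp2 (−0.52) and the receptor adaptor Grb10 (−0.33).

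Genes of vessel wall and blood clotting went in both directions. Eln, the gene of elastin, was at 997 and 616 CPM in restricted cells (0.70, 0.65 to 0.74) and the elastic fibre protein Fbln2 at 424 and 294 CPM (0.53). The matrix cross-linking enzyme Loxl2 was lower, at 26.2 and 84.3 CPM (−1.69, −1.93 to −1.45). Of 13 genes of the clotting list in restricted cells, 1 was at least 2-fold higher and 3 at least 2-fold lower (0.351% and 1.82% of all genes). The higher one was Sdc1, a heparan sulphate proteoglycan, at 20.1 and 9.47 CPM (1.08, 0.72 to 1.44). Vwf, the von Willebrand factor, was at 278 and 170 CPM (0.71, 0.62 to 0.80). The inhibitors of the tissue factor pathway Tfpi2, at 41.5 and 135 CPM (−1.70), and Tfpi, at 721 and 1132 CPM (−0.65), were lower. Coagulation factor F8 was lower too, at 42.9 and 109 CPM (−1.35). Tfpi2 and F8 are among the 3 genes at least 2-fold lower, and Tfpi is not. In Control, Tfpi2, Tfpi and F8 were higher, at 227, 2441 and 268 CPM. Over the whole lists the medians in restricted cells were 0.20 for elastic fibres and −0.09 for coagulation. Over all cells the elastic fibre median had the opposite sign, at −0.69, and the coagulation median was −0.26. Of the elastic fibre genes, 4 of 16 had an interval above and 12 below 0, and 5 were at least 2-fold lower. Over all genes these shares were 29.2%, 20.4% and 5.86%. Carbonic anhydrases had a median of −1.19 over all cells, with 4 of 5 intervals below 0 and 3 genes at least 2-fold lower. Of all genes 20.4% and 5.86% were so. In restricted cells the median of carbonic anhydrases was −0.02, while their summed level still had −1.29. Carbonic anhydrase Car2 was at 275 and 763 CPM (−1.47), with 432 CPM in Control. Erythroid markers of restricted cells summed to 89.3 CPM in positive, 262 CPM in negative and 151 CPM in Control cells. Their part in the Car2 values was not tested. The fatty acid transporter Cd36 was at 143 and 307 CPM (−1.10), with 836 CPM in Control, whereas Gpihbp1, which anchors lipoprotein lipase on capillaries, was at 898 and 667 CPM (0.43).

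**Figure D4:**
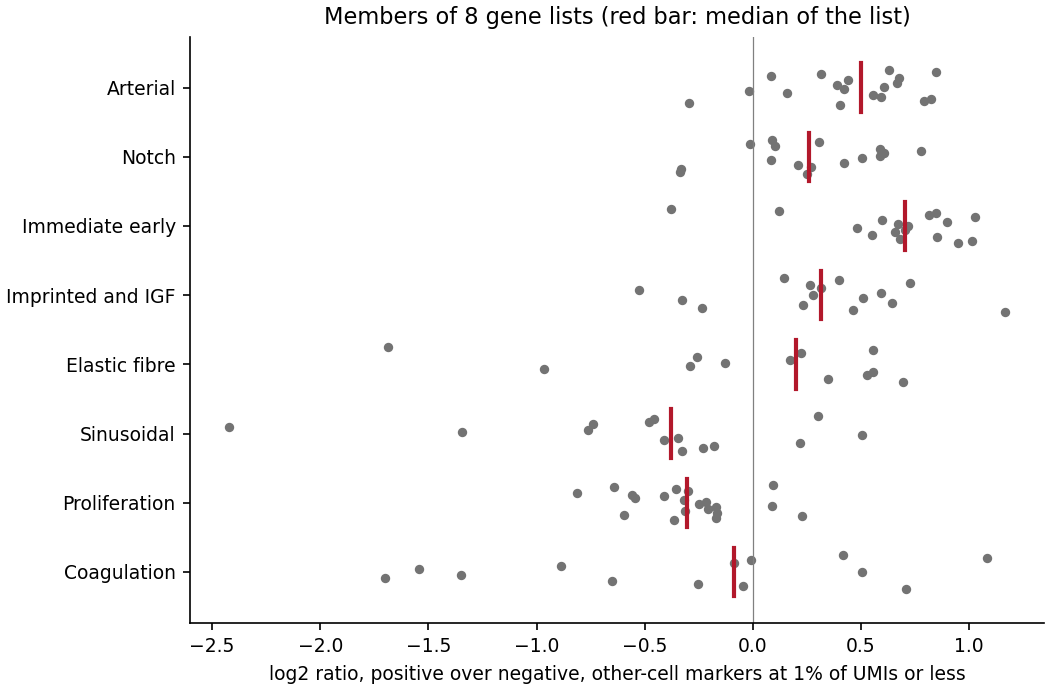
Log2 ratio (x axis, positive over negative restricted cells) of the members of 8 gene lists with at least 100 UMIs in both groups together, 1 grey point per gene, with the median of each list as a red bar. The arterial (0.50) and the immediate early and dissociation (0.70) medians lie right of 0 and the sinusoidal median (−0.38) left of it.

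The tip cell list had a median of 0.36 in restricted cells, with 8 of 12 intervals above 0 and 2 below, where 14.7% and 15.4% of all genes had one, as for the lists that follow. It held Nos2, the inducible nitric oxide synthase, at 43.4 and 24.9 CPM (0.80) and Esm1, a secreted proteoglycan of tip cells, at 5.49 and 11.9 CPM (−1.12). Metaphyseal genes had −0.07 (0.33 over all cells), with the mechanosensitive channel Piezo2 (−1.38) and the receptor-modifying protein Ramp3 (−1.68) lower. Vascular transcription factors had 0.28, with 10 of 18 intervals above 0 and 5 below and with Foxc2 and Sox7 at 0.59 each. Flow-responsive genes had 0.22, with 7 of 13 intervals above 0 and 3 below and with Ace, the angiotensin-converting enzyme, at 174 and 93.6 CPM (0.90) and the chemokine Cx3cl1 at 0.90. The lists of VEGF and angiopoietin signalling (0.09), BMP and TGFβ signalling (0.14), hypoxia (0.04), leukocyte adhesion (0.12), interferon response (0.11), lipid handling (−0.08), cell junctions (0.01), collagens and matrix (0.02) and cyclins and their inhibitors (−0.07) were near the median of all genes in restricted cells (0.00). Their members went both ways, with 9 of 16 intervals above 0 and 4 below for leukocyte adhesion. VEGF and angiopoietin signalling had 8 of 17 above and 4 below, and BMP and TGFβ signalling 9 of 20 above and 3 below. Over all cells 29.2% of all genes had an interval above 0, and the median of all genes was 0.06. Leukocyte adhesion had 0.44 there, with 13 of 16 intervals above 0, and interferon response 0.34, with 10 of 17. Cell junctions had 0.24, collagens and matrix 0.23, BMP and TGFβ signalling 0.23 and VEGF and angiopoietin signalling 0.21. Hypoxia (0.05), lipid handling (−0.07) and cyclins and their inhibitors (0.02) were nearer to the median of all genes. Among their members in restricted cells, the guidance ligand Sema3a was lower (19.8 and 59.5 CPM, −1.59), as were Bmp2 (−1.17) and the adhesion receptor Selp (98.8 and 166 CPM, −0.75), while Bmp4 (80.9 and 47.7 CPM, 0.76), the adhesion molecule Madcam1 (0.87) and the chemokine Cxcl9 (0.89) were higher. The genes of the Dach family and its transcriptional partners had 2 candidates in restricted cells, with a median of 0.07, and 4 over all cells, with −0.60.

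Some list members had their largest ratios over all cells. The extracellular matrix genes Mfap5 (−2.54), Mgp (−1.33) and Tnc (−0.96) had −1.81, −0.31 and −0.49 in restricted cells, with intervals below 0 in both settings, and 47.1% of the Mfap5 UMIs of positive cells came from 1 cell. The platelet receptor gene Gp1ba (−2.97) and coagulation factor F5 (−1.93) had intervals that held 0 in restricted cells (−0.33 and −0.44). The same was so for the carbonic anhydrases Car3 (−1.45, then −0.04) and Car12 (−1.40, then −0.02), the activin inhibitor Fst (−1.52, then 0.02), the angiopoietin Angpt1 (−1.34, then −0.12), the hypoxia genes Hk2 (−1.39, then −0.87) and Bnip3 (−0.93, then 0.25), the cytochrome Cyp1b1 (−1.45, then −0.36), the imprinted Peg3 (−1.15, then 0.23) and the factor Eya4 (−1.20, then −0.86). In contrast, the class II antigen gene H2-Ab1 (−1.39, then −1.40), the cadherin Cdh2 (−1.26, then −0.76), the cyclin Ccnb1 (−0.54, then −0.60) and the heat shock gene Hspa1b (0.94, then 0.85) kept intervals on the same side of 0. Hspa1b has a near-identical copy, Hspa1a, so that its value is uncertain. Igfbp6 had −1.66 over all cells and −3.47 (−6.56 to −1.54) in restricted cells, from 2 and 50 UMIs. The nuclear-retained RNAs Neat1 and Meg3 had −0.98 and −0.88 over all cells and −0.25 and −0.23 in restricted cells.

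The study followed factors that type R capillaries secrete. In restricted cells Sema7a was at 576 and 316 CPM (0.86, 0.80 to 0.93) and the chemokine Cxcl12 at 707 and 442 CPM (0.68, 0.62 to 0.73), whereas Cxcl12 had 0.03 (−0.01 to 0.07) over all cells. Stromal cells of bone express Cxcl12 strongly. Stromal markers had a median of −0.91 over all cells, with 6 of 7 intervals below 0 (20.4% of all genes). In restricted cells their median was 0.34, with 3 of 6 intervals above and 2 below 0 (14.7% and 15.4% of all genes). The part of stromal cells in the Cxcl12 values was not tested. In restricted cells Edn1 (0.12), Bmp6 (0.24) and Pdgfd (0.17) had intervals that held 0, and Ntf3 had 3.45 and 1.95 CPM. Differences in these 4 were not detectable there at this depth, whereas over all cells Edn1 (0.40, 0.19 to 0.60) and Pdgfd (0.35, 0.19 to 0.51) were higher in positive cells. Of the type R genes, Cav1, which encodes the coat protein of caveolae, was at 510 and 392 CPM (0.38, 0.32 to 0.44), against 181 CPM in Control, while C1qtnf9 had −0.40 (−0.83 to 0.01) and the monooxygenase Fmo2 −1.39. The study finds Cav1 prominent in arterial ECs too, and its ratio by vessel class is given further below. Aplnr itself, whose promoter drives Cre, was at 527 and 549 CPM (−0.06, −0.12 to −0.00), but over all cells at 477 and 372 CPM (0.36, 0.30 to 0.41). Angptl4 did not differ detectably in restricted cells (0.14, −0.03 to 0.31) and was higher in positive cells over all cells, at 59.4 and 41.9 CPM (0.51, 0.35 to 0.66), with 105.7 CPM in Control ECs, above both. Hif1a did not differ detectably in either setting (0.02, −0.11 to 0.15 in restricted cells and 0.05, −0.06 to 0.17 over all cells).

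Since the library pooled 2 mice of both sexes, cells with Xist and no Y-linked UMI and cells with Y-linked UMIs and no Xist are each taken as 1 mouse, so that mouse and sex cannot be told apart. Positive cells numbered 487 and 503 of them and negative cells 1733 and 1309, while 98 positive and 311 negative cells held both and the rest neither. The share of ECs with 2 or more Dach1 UMIs was 17.2% (15.9 to 18.7) with Xist and 21.4% (19.8 to 23.2) with Y-linked UMIs. In restricted cells Scgb3a1 had 569 and 190 CPM (1.58) in the former and 630 and 243 CPM (1.38) in the latter. The 2 ratios of Gpm6a were −2.29 and −2.66, those of Il13ra2 −3.24 and −2.47, those of H19 1.23 and 1.41 and those of Igfbp5 0.78 and 0.78. The ratios of these genes thus had 1 direction in both mice, with intervals that exclude 0. Other genes had less even ratios. Prdm16 had 1.62 and 0.40, Cxcl12 1.27 and 0.20 and Cxcl10 0.22 and 0.30, where both intervals held 0. Whether the mice differ was not tested.

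**Figure D5:**
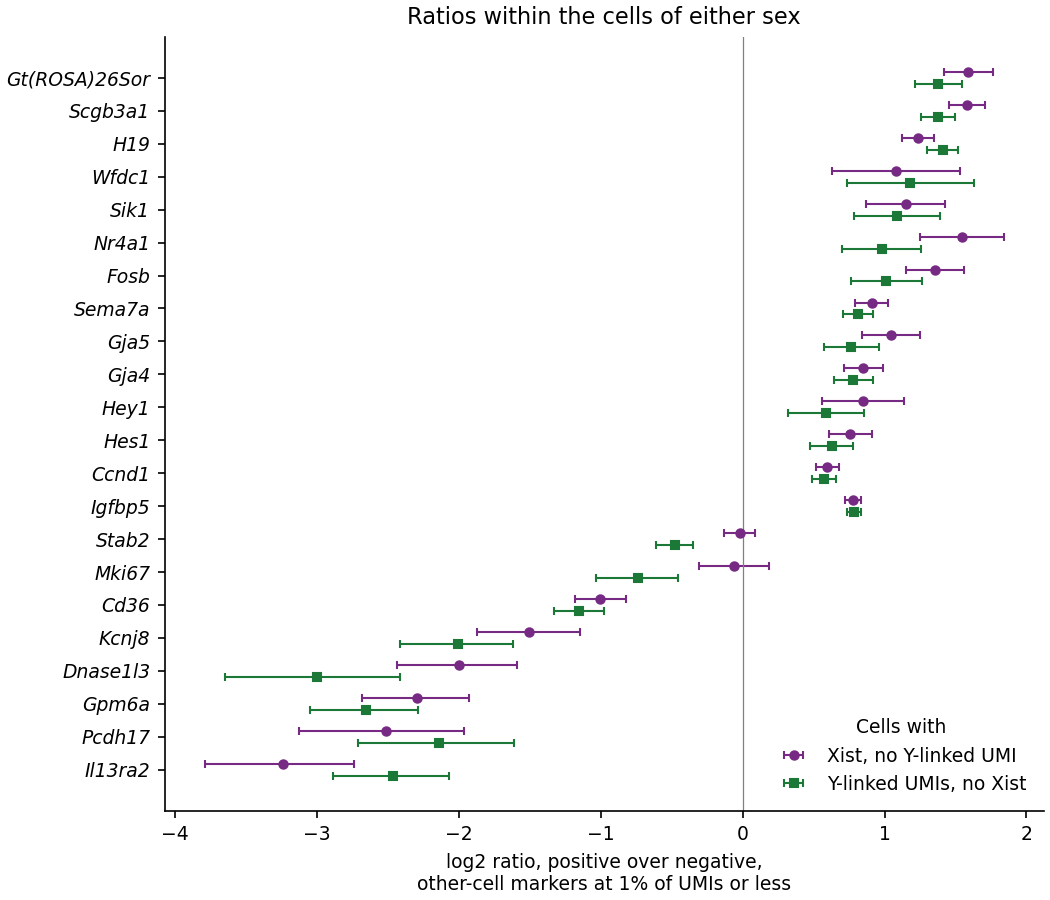
Log2 ratio (x axis, positive over negative restricted cells) of 22 genes in cells with Xist (purple circles) and in cells with Y-linked UMIs (green squares), with 95% counting intervals. Scgb3a1 (1.58 and 1.38) and Il13ra2 (−3.24 and −2.47) lie far from 0 in both, and Stab2 (−0.02 and −0.48) lies nearer to it.

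Finally, restricted cells were set side by side within classes of like vessel markers. With at least 2 UMIs over the sinusoidal genes Stab2, Flt4 and Gpr182 and none of 5 arterial genes, 38.3% of positive (35.6 to 41.0), 45.3% of negative (43.6 to 46.9) and 59.9% of Control ECs were sinusoidal. The arterial class, with at least 2 UMIs over the 5 arterial genes and under 2 over the 3 sinusoidal ones, held 19.1% (17.0 to 21.3), 15.8% (14.6 to 17.0) and 5.48%. These classes are cut from a few UMIs and follow depth, so they are ranges of cells and not cell types. Scgb3a1 was a gene of the sinusoidal and the remaining class, at 881 and 342 CPM in sinusoidal cells (1.36), 598 and 237 CPM in the remaining cells (1.34) and 64.0 and 36.4 CPM in arterial cells (0.81). Il13ra2 had −2.71 in the sinusoidal class, at 32.5 and 213 CPM, and −2.92 in the remaining cells, and Gpm6a had −2.62 and −2.31. In contrast, H19 and Wfdc1 were mainly arterial. H19 was at 2986 and 1222 CPM in arterial cells (1.29, 1.22 to 1.36), and lower in sinusoidal positive cells, at 31.7 and 75.7 CPM (−1.26, −1.63 to −0.90). Eln was at 3957 and 2177 CPM in arterial cells (0.86), with −0.05 in the remaining cells (−0.16 to 0.05). Wfdc1 was at 209 and 98.0 CPM in arterial cells (1.09). In arterial cells Pcdh17 was at 41.1 CPM in negative and 129 CPM in Control cells, and Ptn at 31.2 and 124 CPM. In sinusoidal cells these values were 65.3 and 55.3 CPM and 17.5 and 16.9 CPM. In the remaining cells they were 78.6 and 92.4 CPM and 51.0 and 53.8 CPM. Cxcl12 differed most in the remaining cells (569 and 219 CPM, 1.38). Cav1 was higher in positive cells of the arterial class (0.44, 0.36 to 0.52). In sinusoidal cells (0.005, −0.23 to 0.23) and in the remaining cells (0.015, −0.09 to 0.12) its intervals held 0. Dll4 and Notch4 had intervals above 0 in sinusoidal (0.35 and 0.22) and remaining cells (0.60 and 0.38). In arterial cells their intervals held 0 (0.16 and 0.04). Differences within a class are thus seen for some genes of either kind of endothelium and not for others. Whether the ratios differ between classes was not tested.

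A like comparison was made in the Control library, without Cre, at a lower threshold because 2 or more UMIs were rare there. Its 179 ECs with 1 or more Dach1 UMIs were set against its 7870 ECs with none, with median depths of 5504 and 3910.5 UMIs. The groups also differed in makeup: other-cell markers took 1% or less of the UMIs in 65.9% and 78.0% of them, and of the cells assigned to either sex 26.6% and 43.9% carried Y-linked UMIs. Their part in the ratios was not tested. Il13ra2 had a log2 ratio of −0.73 (−0.95 to −0.51) and Gpm6a of −0.73 (−0.88 to −0.58), in the same direction as in Dach1OE but smaller. Gt(ROSA)26Sor had 0.17 (−0.56 to 0.81), Sema7a −0.12 (−0.48 to 0.22) and Gja4 0.39 (0.02 to 0.73). Vwf had 2.06, Eln 1.32 and Scgb3a1 −1.28 from 5 UMIs. Dach1-negative cells of Dach1OE were also set against Control ECs with no Dach1 UMI. Of 10934 genes, 104 (0.951%) were at least 2-fold higher and 116 (1.06%) at least 2-fold lower, and in restricted cells 193 (1.85%) and 105 (1.0%) of 10460. This contrast shares the negative cells with the main one, so values are set side by side and no overlap is read. In restricted cells Scgb3a1 had 4.24 in negative cells over Control and 1.28 in positive over negative cells, Sema7a 2.25 and 0.86, Gja4 2.04 and 0.79, Il13ra2 −1.21 and −2.87, Gpm6a −1.97 and −2.60 and Dnase1l3 −1.86 and −2.42.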

How the data were processed

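Single-cell RNA of femur and tibia was measured on the BD Rhapsody system in 1 Control and 1 Dach1OE library. The authors deposited counts per cell and gene: reads and UMIs, the latter raw and corrected for sequencing errors (RSEC-adjusted), as whole numbers without normalization. Per the file headers these counts were made with the BD Rhapsody WTA Analysis Pipeline 1.11 (the methods state another version) on GRCm38 with GENCODE vM19, intronic reads included. The submitters' processing notes name mm10. Intronic reads add unspliced and overlapping transcripts to a gene's value.

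Cells with 500 to 6000 genes and under 25% mitochondrial UMIs were kept. RSEC-adjusted UMIs were summed per group and divided by the group's total (CPM), with exact Poisson intervals, an exact conditional binomial interval for the log2 ratio and Clopper-Pearson intervals for shares, at the 95% level. Sums leave depths of 8079152 and 25854105 UMIs per group. Candidates reached 5 CPM in both groups together. Dach1, the genes of the rule, mitochondrial genes, Xist and Y-linked genes were left out. With 1 library per group a gene counts as past the fold at 2-fold, and no test was run. No doublet caller was used: cells rich in markers of 12 other cell types, or with Xist and Y-linked UMIs together, were left out in alternatives.

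Named genes are the 15 highest and 12 lowest candidates past the fold with 1 sign in both sexes, members of each list with the largest ratios and the study's own genes. A few of these genes are not reported here. Members and lists were chosen with earlier results of these data known. Alternatives covered scaling (edgeR 4.0.16 TMM and DESeq2 1.42.0 size factors under R 4.3.3), filters, depth, thresholds, sex and vessel markers, and 9 of them were added after the data were seen. The scripts (Python 3.11.15, numpy 2.4.6, scipy 1.17.1, pandas 2.3.3) were tested on simulated data. Gene coordinates come from GENCODE vM21, another release on GRCm38, and promoters from RefSeq (GRCm38.p6), which held 5 of the genes looked up. The promoters of Hes1, Hey1 and Sox17 were not used here.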

Additional observations from a re-analysis of the deposited data

Results flagged for a closer look

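Of 426 genes compared within the cells of either sex over all cells, 7 had counting intervals on opposite sides of 0, and each sex stands for 1 mouse, so that mouse and sex cannot be told apart. The difference between the sexes was not tested for any of them. Given as log2 ratios of Dach1-positive to Dach1-negative ECs in cells with Xist and in cells with Y-linked UMIs, Pgf, the placental growth factor, had −0.76 and 0.87. The sinusoidal list member Tspan7 had 0.15 and −0.23, and the cell cycle inhibitor Cdkn1c 0.41 and −0.14. The mitotic ubiquitin enzyme Ube2c had 0.27 and −0.46, and the immediate early gene Fosb 0.63 and −0.20. In restricted cells Fosb was higher in positive cells of either sex, at 1.36 and 1.01. The haemoglobin genes Hbb-bs (−2.15 and 1.72) and Hba-a2 (−2.66 and 1.12) mark erythroid cells and have near-identical copies, which makes their values uncertain.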

How the results depend on the processing

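No paired analysis was possible because the labels give no replicate numbers and no test was run. Ratios within the cells of either sex stand in its place. Of 74 genes followed over 24 alternatives, 17 had values on both sides of 0. They were 5 of the 50 genes past 2-fold over all cells and 12 of the 24 others, which included Stab2 (−0.56 to 0.45), Flt4 (−0.28 to 0.58), Aplnr (−0.20 to 0.67), Cxcl12 (−0.15 to 1.27), Car4 (−0.33 to 1.45) and Edn1 (−0.02 to 0.63). Of the 5, Ppbp (−3.18) turned to 0.22 in restricted cells, 0.17 with endothelial genes also at 0.3% or more of UMIs, 0.28 with Gt(ROSA)26Sor in all positive and no negative cell, 0.33 and 0.21 with negative cells standardised to depth and to vessel classes, and 0.076 and 0.70 in restricted cells with Xist and with Y-linked UMIs. Each of these settings used restricted cells, and Ppbp is one of the markers that define them, so its sign there is shaped by the choice. Klk14 turned to −0.46 in cells with Xist, Npas4 to 0.87 and Slamf1 to 0.15 in restricted cells with Xist, and Npy to 0.22 in restricted cells with Y-linked UMIs. The 69 genes higher became 585 without a filter on level, 33 at 20 CPM, 199 from 4000 UMIs per cell, 33 with 1 or more and 104 with 3 or more Dach1 UMIs, 31 as mean CPM per cell, 116 and 120 with Xist and with Y-linked UMIs and 161 with negative cells without Gt(ROSA)26Sor. In restricted cells they were 37, 30 with the endothelial minimum, 130 with the Gt(ROSA)26Sor rule, 56 and 32 standardised to depth and to vessel classes and 116 and 94 with Xist and with Y-linked UMIs. The 641 genes lower became 1980 without the filter, 296 at 20 CPM and 284 with 1 or more Dach1 UMIs, and in restricted cells 192, then 115, 318, 208 (standardised to depth), 194, 297 with Xist and 300.0 with Y-linked UMIs.

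The arterial median (0.83) stayed above 0, at 0.66 thinned, 1.12 from 4000 UMIs, 0.74 and 0.95 with 1 and 3 Dach1 UMIs, 0.67 with 4 endothelial genes, 0.64 as mean per cell, 0.99 and 0.92 with Xist and Y-linked UMIs and 1.14 with negative cells without Gt(ROSA)26Sor. In restricted cells it was 0.50, then 0.41 with the endothelial minimum, 0.49 and 0.42 standardised to depth and classes and 0.71 and 0.47 by sex. The sinusoidal median (−0.03) went either way, with −0.091 by DESeq2 size factors, −0.26 thinned, −0.11 from 1000 and 0.27 from 4000 UMIs, −0.17 with 4 endothelial genes, −0.26 as mean per cell and 0.14 with Xist. In restricted cells it was −0.38, then −0.48, −0.64 with the Gt(ROSA)26Sor rule, −0.28 and −0.28 standardised and −0.17 and −0.48 by sex. TMM and DESeq2 factors shifted every log2 ratio by −0.06. Negative cells over Control had 104 genes higher, and 193 in restricted cells. The share of Dach1-positive ECs (17.7%) was 14.9% at any depth, 21.4% from 4000 UMIs, 6.93% thinned, 18.6% with 4 endothelial genes and 21.4% with Y-linked UMIs. The cause of these changes was not tested. With 1 library per group the spread between libraries is unknown. At about 1.5 reads per UMI and these depths per cell, 0 Dach1 UMIs in a cell do not show that Dach1 RNA was absent.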

Other observations

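A few genes whose values were not given above are added here for restricted cells, and they were chosen after their values were seen. Tcf15 and Meox2 belong to the list of lipid handling and Car4 to that of carbonic anhydrases. Slc1a3, a glutamate and aspartate transporter, was at 40.9 CPM in positive, 18.04 CPM in negative and 1.56 CPM in Control ECs, a log2 ratio of positive to negative cells of 1.18 (0.93 to 1.44). The ratio was 1.31 in cells with Xist and 1.33 in cells with Y-linked UMIs. Gda, the guanine deaminase of purine breakdown, was at 16.2, 62.1 and 180 CPM (−1.94, −2.25 to −1.65), with −1.86 and −2.04 in the cells of either sex. Tcf15 and Meox2 encode partner transcription factors of the capillary endothelium of heart and muscle, where they act in fatty acid uptake. Here their ratios had opposite signs, with Tcf15 at 47.0, 24.5 and 4.58 CPM (0.94, 0.71 to 1.17) and Meox2 at 4.39, 11.1 and 10.6 CPM (−1.34, −1.98 to −0.76). Car4, a membrane-bound carbonic anhydrase of capillaries, was at 17.2 CPM in positive and 13.6 CPM in negative cells (0.34, −0.01 to 0.69), against 0.191 CPM in Control. Over all cells the ratio was 0.75 (0.45 to 1.05), so that a difference in Car4 was detectable there and not in restricted cells, while both groups lay above Control.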
